A study of Ovis aries with 9 samples.

Results

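Among 11709 genes that reached a mean of 1 CPM (counts divided by their library's total and scaled up to the usual common depth) in at least one group of cultured rumen epithelial (RE) cells, 196 were lower in the cells treated with GA-017 (GA group) and higher in the cells treated with verteporfin (VP group) than in the untreated cells (Con group). The table lists 25962 genes in all. These 196 genes were chosen by their measured values. L, the log2 ratio of the mean treated CPM to the mean Con CPM with 0.1 CPM added to both, had to be -0.3 or less in GA and 0.3 or more in VP, and the groups could not overlap, with the highest GA library under the lowest Con library and the lowest VP library over the highest Con library. The values of the 3 groups therefore made the choice. What follows describes them, and the sizes and orders that the rule fixed were not tested.

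RNA-seq was carried out on wild-type primary RE cells that had been isolated from newborn Hu lambs and grown in a serum-containing medium with growth factors and hormones. The cells were left untreated (Con), received 10 μM GA-017 for 24 h (GA) or received 5 μM verteporfin for 24 h (VP), with 3 wells in each group. The replicates were wells of cultured cells, so their spread is not known to hold variation among lambs and may be partly technical. Both compounds were dissolved in DMSO, and the sources used here do not say whether the Con wells received DMSO or from how many lambs the cells came. Counts per library ranged from 14458606 to 15814380, and the highest total was 1.09 times the lowest. In each group 1 well stood apart from the other two. The chi-square of the counts over its degrees of freedom was 2.92 between wells 2 and 3 of GA but 13.6 and 14.1 between these and GA well 1. It was 2.87 between wells 1 and 2 of VP but 8.14 and 7.48 against VP well 3, and 4.52 between wells 1 and 2 of Con but 10.6 and 7.22 against Con well 3.

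YAP1 and TAZ are transcriptional co-activators at the end of the Hippo pathway. Kinases of this pathway phosphorylate them and hold them out of the nucleus. When they enter the nucleus, they bind TEAD proteins and switch on genes for growth and survival. In stratified squamous epithelia such as that of the rumen, their activity is known to go with the dividing cells of the basal layer, while the layers above differentiate and stop dividing. GA-017 is used to activate YAP1/TAZ, and verteporfin, a porphyrin also known as a photosensitizer, is used to disrupt the pairing of YAP1/TAZ with TEAD proteins. Whether YAP1/TAZ act on any of the 196 genes was not measured.

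The genes are given by Ensembl identifier only. No symbols come with them, and the RefSeq table of sheep genes used here lists no Ensembl identifiers, so none of the 25962 identifiers could be looked up in it. The functions of the 196 genes, the pathway and cell marker lists and the sequences of the genes are therefore not described here, and the labelled cell type was not checked against its markers. In such bulk RNA, fewer cells of a type and less RNA per cell cannot be told apart.

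The rule narrowed the genes in the following way. Every GA library lay below every Con library in 2977 genes (25.4% of the 11709), every Con library lay below every VP library in 2938 genes (25.1%), and both orders held together in 523 genes (4.47%). Of these 523 genes, 327 did not reach a size threshold. In 254 of them L for VP was under 0.3, and in 180 of them L for GA was above -0.3. Conversely, 302 genes reached both sizes, of which 106 had overlapping libraries. On library totals, the VP size thus removed more of the ordered genes than the GA size, and these counts were not made under other scalings. The same rule with both directions reversed (higher in GA, lower in VP) was met by 354 genes.

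At the edge of the rule, the members nearest to the threshold had an L for VP of 0.30 in both cases, with L for GA of -1.16 and -0.53. The nearest genes outside had L for GA of -0.299 with L for VP of 0.43, and L for VP of 0.299 with L for GA of -0.54. There was no gap in the values at the threshold, so 0.3 is a line through a continuous range.

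**Figure D1:**
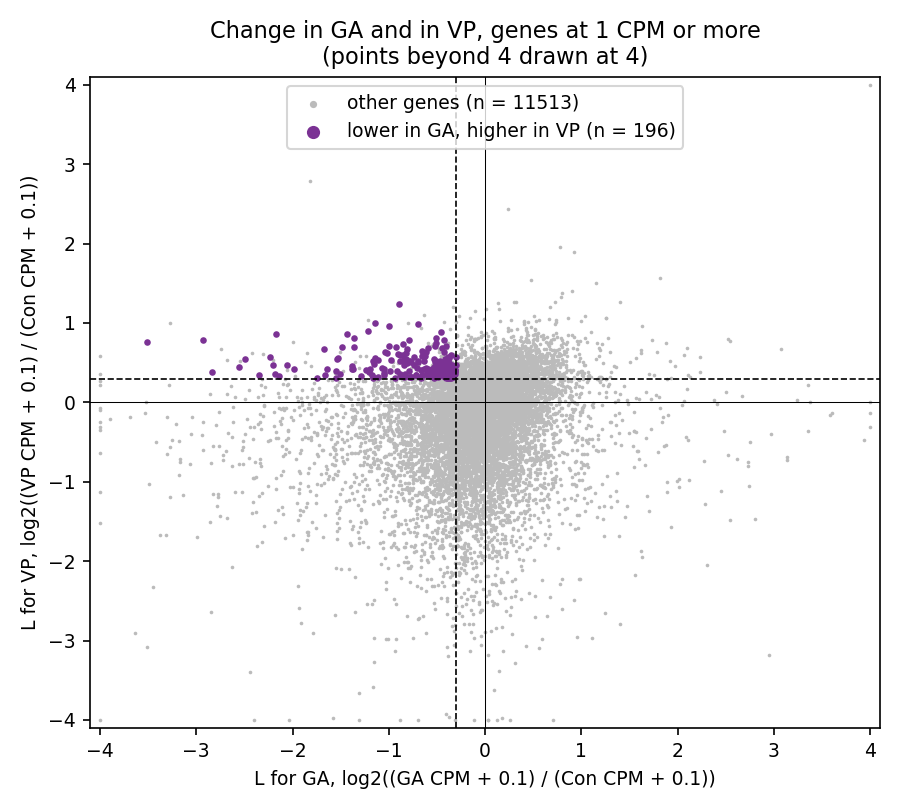
L for GA (horizontal) against L for VP (vertical), both in log2 units, for the 196 members (purple) and the other genes at 1 CPM or more (grey), with dashed lines at the thresholds of -0.3 and 0.3 and with values beyond 4 drawn at 4. The members spread widely along GA, down to -3.51, and stay between 0.30 and 1.24 along VP.

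All 196 members reached 1 CPM in VP, 193 reached it in Con and 185 in GA. Hence 11 members were under 1 CPM in GA, of which 3 passed the minimum through VP alone. For the latter, the requirement to be expressed already favours a difference.

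Together the 196 genes held 2.99%, 2.93% and 2.77% of the counts in Con wells 1, 2 and 3. They held 1.68%, 1.88% and 1.87% in the GA wells, and 3.92%, 3.90% and 3.73% in the VP wells. All GA wells were thus below all Con wells and all VP wells above them, as the rule requires. Con had a mean share of 2.90% ± 0.116, GA one of 1.81% ± 0.114 and VP one of 3.85% ± 0.104 (SD, n = 3), that is, 1.60 times higher in Con than in GA and 1.33 times higher in VP than in Con. Without the well of each group that stood apart, the mean shares were 2.96%, 1.88% and 3.91% (n = 2). The 3 most abundant members held a large part of these counts. For the other members the Con share was 1.59% ± 0.0687, the GA share 1.01% ± 0.0688 and the VP share 2.15% ± 0.0607 (SD, n = 3). The order of these shares follows from the rule, which holds for each member.

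On library totals the difference was larger in GA than in VP for most members, and in how many depended on the scaling. L for GA ranged from -3.51 to -0.30 with a median of -0.61, beside a median of -0.03 over all 11709 genes. L for VP ranged from 0.30 to 1.24 with a median of 0.43, beside -0.09 over all genes. In 146 of the 196 genes the distance from Con was larger in GA, and in 50 it was larger in VP. In 55 genes the GA distance was more than 2 times the VP distance, and the opposite was found in 0 genes. With DESeq2 size factors, which bring the median L for VP of all genes to 0.00, the members' medians were -0.58 in GA and 0.52 in VP, and the distance was larger in GA in 104 and in VP in 92. With cyclic loess they were -0.58 and 0.56, with 108 and 88 genes. Other scalings kept more of the asymmetry. The distance was larger in GA in 111 and in VP in 85 with TMM. These counts were 115 and 81 with upper-quartile scaling, and 132 and 64 with totals excluding the 10 most abundant genes. Counted on library totals from the median of all genes in 4 bins of mean CPM, they were 127 and 69. For these 196 genes, chosen on library totals and kept the same, the asymmetry was thus smaller under each alternative, to a differing degree. The genes that the rule chooses under each scaling were not compared in this way. On library totals the GA side took a median of 57.3% of the log2 distance from GA to VP, with quartiles of 49.8% and 68.9%. The median was 51.6% with cyclic loess, the lowest, and 56.0% with totals excluding the 10 most abundant genes, the highest of the alternatives.

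Grouped by the size in GA, 73 members had L for GA above -0.5, 73 lay between -1 and -0.5, and 50 were at -1 or less, which is 2-fold or more below Con. Of the last, 12 were at -2 or less. In VP, 131 members had L under 0.5, 64 lay from 0.5 to 1, and 1 exceeded 1. Only 53 members had a distance of at least 0.5 in both. Members with a large distance in GA did not have a correspondingly large one in VP, since the median L for VP was 0.41, 0.47 and 0.44 in the 3 classes of GA size, whose median L for GA was -0.39, -0.69 and -1.38. Across the 196 genes, L for GA and L for VP had a Spearman's rho of -0.20. Both contain the same Con libraries, and genes are not independent replicates. The distance from GA to VP was at least 1 log2 unit in 109 members and at least 2 in 26.

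**Figure D2:**
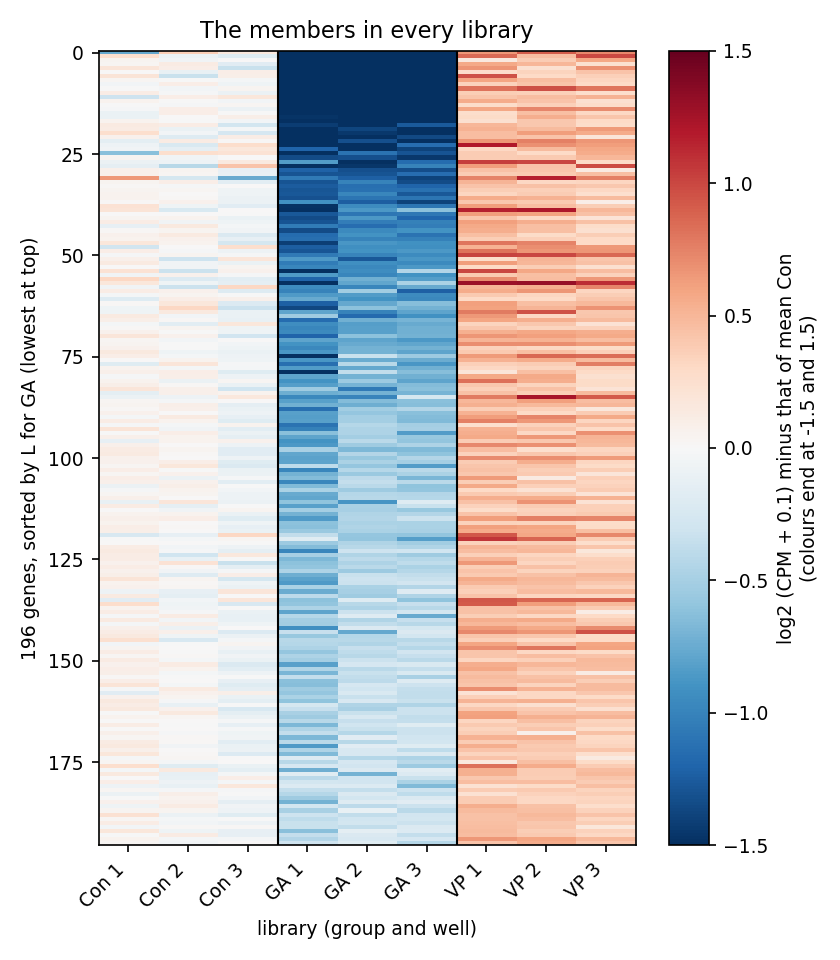
The log2 CPM of each of the 196 members (rows, sorted by L for GA) in each of the 9 libraries (columns), relative to the mean of Con (0.1 CPM added), in blue where lower and red where higher, with colours ending at 1.5 either way. The GA columns grade from deep to pale blue down the rows while the VP columns stay a nearly even red, and GA well 1 is the deepest blue of the GA wells, with a median of -0.80 against -0.53 and -0.59.

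Single members are shown by 4 identifiers. The first pair has the largest value of the smaller of both distances, and the second pair has the highest mean CPM. ENSOARG00020016179 was first by distance, but it is a rarely counted gene that reached 1 CPM in VP alone and so had to differ to be included. It had 10, 7 and 8 counts in the Con wells, 0, 4 and 5 in the GA wells and 21, 21 and 13 in the VP wells. Its Con mean was 0.550 ± 0.0932 CPM, its GA mean 0.194 ± 0.171 CPM and its VP mean 1.20 ± 0.328 CPM (SD, n = 3). The GA level is at that of 3 counts per library (0.195 CPM). Its log2 fold change from edgeR was -1.42 (SE 0.73) in GA and 1.16 (SE 0.47) in VP, and it was the only one of the 4 that was not called in GA. The GA value was -0.86 without GA well 1, which had 0 counts, and -1.99 without GA well 3, so single wells decide it.

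ENSOARG00020005568 was second by distance and is well counted, with 728 counts or more in every library. It had 99.5, 104 and 99.6 CPM in Con, 48.3, 50.8 and 52.4 CPM in GA, and 203, 203 and 184 CPM in VP. The libraries of a group lay close together and far from those of the other groups. The means of 101 ± 2.29, 50.5 ± 2.05 and 197 ± 11.0 CPM (SD, n = 3) were 2.00 times higher in Con than in GA and 1.95 times higher in VP than in Con, so it was nearly symmetric around Con and 3.89 times higher in VP than in GA. Its log2 fold change from edgeR was -0.97 (SE 0.09) in GA and 1.01 (SE 0.07) in VP.

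ENSOARG00020011601 was the most abundant member and ranked 9 among all genes by mean CPM. It had 7184, 6997 and 6643 CPM in the Con wells, 4535, 4992 and 5005 CPM in the GA wells, and 8824, 8735 and 8368 CPM in the VP wells. Well 3 was the lowest of Con and of VP, and well 1 was the lowest of GA, but no wells of different groups overlapped. The mean was 1.43 times higher in Con than in GA and 1.25 times higher in VP than in Con, which places it near the edge of the rule (174 of 196 by distance).

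ENSOARG00020019951 was the second most abundant member and ranked 21 among all genes. It had 3586, 3679 and 3410 CPM in Con, 1943, 2132 and 2131 CPM in GA, and 5120, 5215 and 4944 CPM in VP. As for the gene before, the lowest wells were Con 3, GA 1 and VP 3. Its means of 3559 ± 137, 2069 ± 109 and 5093 ± 138 CPM (SD, n = 3) were 1.72 times higher in Con than in GA and 1.43 times higher in VP than in Con.

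**Figure D3:**
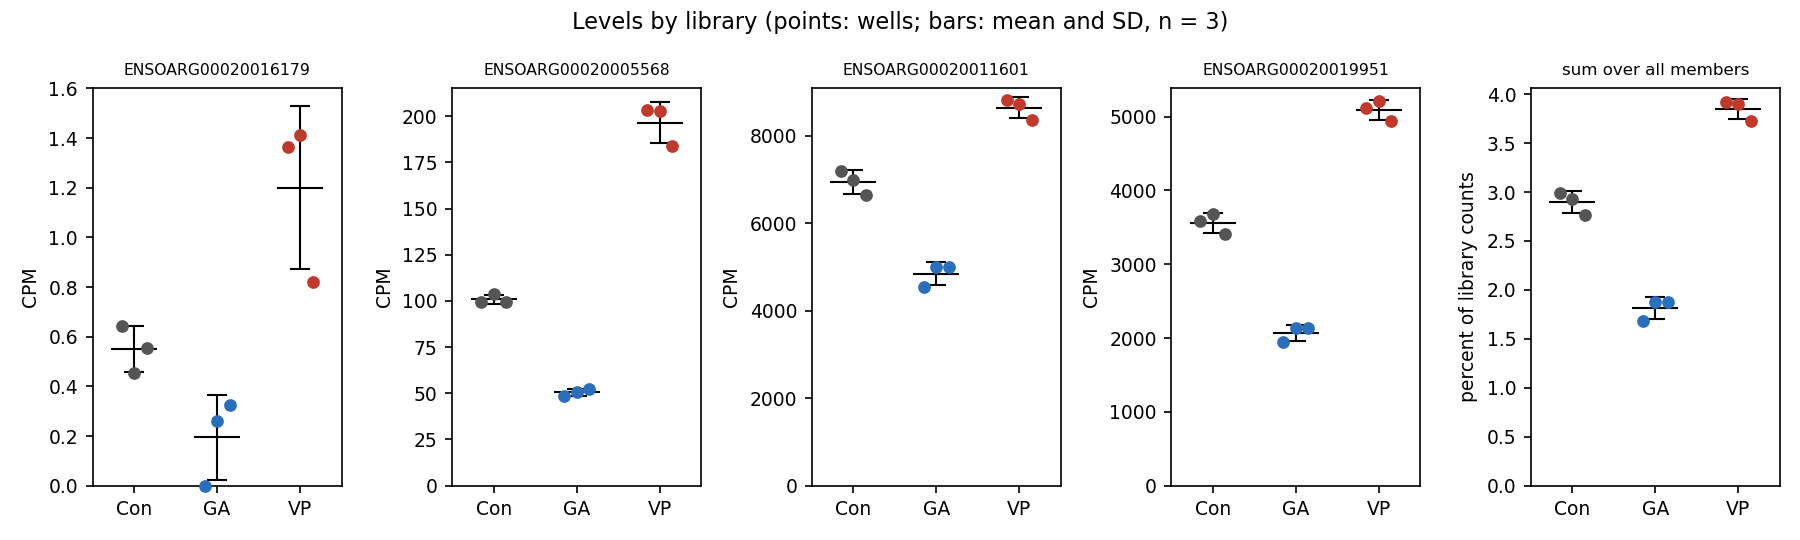
CPM of the 4 identifiers, and the percentage of library counts on all 196 members, in each well (points) with the mean and SD of each group (n = 3). In every panel the GA wells lie below the Con wells and the VP wells above them, and the rarely counted first identifier has the widest spread relative to its mean.

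With edgeR's quasi-likelihood test over all 11709 genes (called at FDR < 0.05 after Benjamini-Hochberg adjustment), 159 of the 196 members were called lower in GA, where 18.4% of all genes were, and 180 were called higher in VP, where 23.5% of all genes were. Both calls were made for 151 members and for 2.65% of all genes. The rule used these comparisons, so the counts show only how far the rule and the test coincide. The 37 members not called in GA had lower levels, a wider spread and a smaller difference, with medians of 8.07 CPM, of 19.6% for the coefficient of variation among the GA wells and of -0.43 for L. The called ones had 45.1 CPM, 8.80% and -0.67. The 16 members not called in VP were all under 10 CPM. With the fold change threshold of the study added (|log2 fold change| > 1), 46 members were called lower in GA (5.85% of all genes) and 3 higher in VP (0.384%). No gene passed these thresholds as both lower in GA and higher in VP (0%, 0 genes by edgeR, DESeq2 and limma-voom). Genes passing in other pairs of directions were not counted here. At an unadjusted p under 0.05 with the same fold changes and directions, 1 gene passed by edgeR, 1 by DESeq2 and 4 by limma-voom.

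Calls in both comparisons went beyond the members. Of the 310 genes called lower in GA and higher in VP, 159 were not members, and 155 of these missed a size threshold, most often that of VP (143 genes). Only 20 missed an order.

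The members were expressed over a wide range. Their mean CPM over the 9 libraries ran from 0.584 to 6809, with a median of 36.4 CPM, beside 21.7 CPM in all genes. A mean under 10 CPM was found in 21.9% of the members and 31.8% of all genes, and a mean of 100 CPM or more in 23.0% and 15.3%. When all genes were divided by mean CPM into 4 bins of equal size, the bins held 37, 40, 53 and 66 members from low to high. Genes that are rarely counted made up little of the group, since 140 members had 100 counts or more in every library, 11 had under 10 counts in some library and 2 had a library at 0. The shares of all genes in these count classes are not given here, so the classes describe the members only.

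The level of expression also moved with L for VP in all genes. The median L for VP of all genes was -0.32, -0.21, -0.02 and 0.11 in the bins from low to high, and the share of genes with L for VP of 0.3 or more was 15.2%, 13.1%, 19.0% and 26.3%. For GA the medians were -0.17, -0.05, -0.01 and 0.03, and 1171, 766, 617 and 518 genes reached -0.3 or less. The members' own median L for VP was 0.57 in the lowest bin and 0.40 in the highest. Counted from the median of its own bin, L for VP was 0.3 or more in 159 of the 196 members and at least 0.19 in each. L for GA was -0.3 or less in 186, and both held in 149 members. The rule fixed much of this. In the bins with a median L for VP under 0, no member could fall below 0.3. Nor could any rise above -0.3 in the bin with a median L for GA above 0. The part of the trend with expression level in the membership was not tested.

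**Figure D4:**
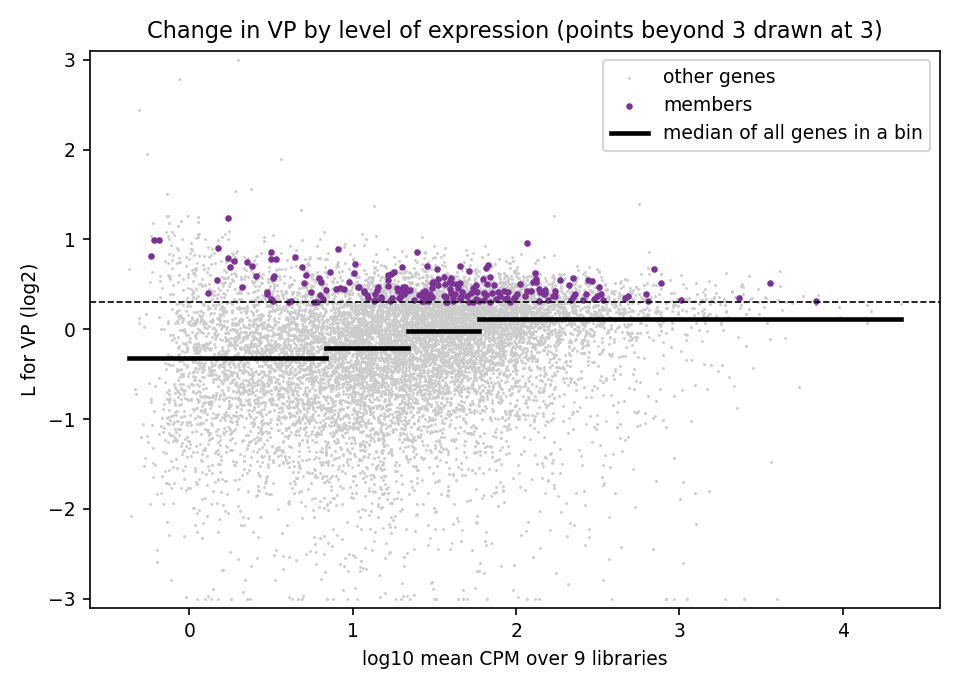
L for VP (log2) against the mean CPM over 9 libraries (log10 scale) for the members (purple) and the other genes (grey, values beyond 3 drawn at 3), with the median of all genes in each expression bin (black bars) and the threshold of 0.3 (dashed). The bars climb from -0.32 to 0.11, so the highly expressed members lie nearer to the median of genes of their own level.

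The wells of a group lay closer together in VP than in GA. The median coefficient of variation of a member was 7.59% among the Con wells, 10.2% among the GA wells and 5.69% among the VP wells, beside 9.14%, 10.6% and 9.63% in all genes. A small spread within groups is favoured by the rule, since the libraries of different groups may not overlap. The gap between the lowest Con and the highest GA library had a median of 0.34 log2 units over the members, and that between the highest Con and the lowest VP library had a median of 0.23. Both gaps were 0.1 or more in 153 members. In 9 members the gap to GA and in 11 members the gap to VP was under 0.05, so that a slight shift of a single well would end the order.

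Within each group, many members deviated in the same wells. The rule named no single well, but it used these libraries, so this is a description. Con well 3 was the lowest of the Con wells in 122 of the 196 members (62.2%, beside 34.6% of all genes). GA well 1 was the lowest GA well in 127 members (64.8%, beside 36.2%), and VP well 3 was the lowest VP well in 115 (58.7%, beside 31.9%). These are the wells that stood apart in the count profiles. The median deviation of the members from their group mean was -0.07 log2 units in Con well 3, -0.10 in GA well 1 and -0.04 in VP well 3, while the medians of all genes were 0.01, 0.02 and 0.03. In the remaining wells it was between 0.01 and 0.06. The members' deviations kept their sign in these wells with TMM scaling (-0.10, -0.11 and -0.09). With TMM the medians of all genes were -0.025, 0.007 and -0.013, so those in Con well 3 and VP well 3 changed sign. In the members of the highest expression bin the deviations were -0.08, -0.13 and -0.05, where the medians of all genes of that bin were -0.03, -0.01 and -0.02. These median deviations were smaller than the members' median L of -0.61 in GA and 0.43 in VP. Relative to Con, however, the members' medians in the GA wells ran from -0.80 to -0.53.

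**Figure D5:**
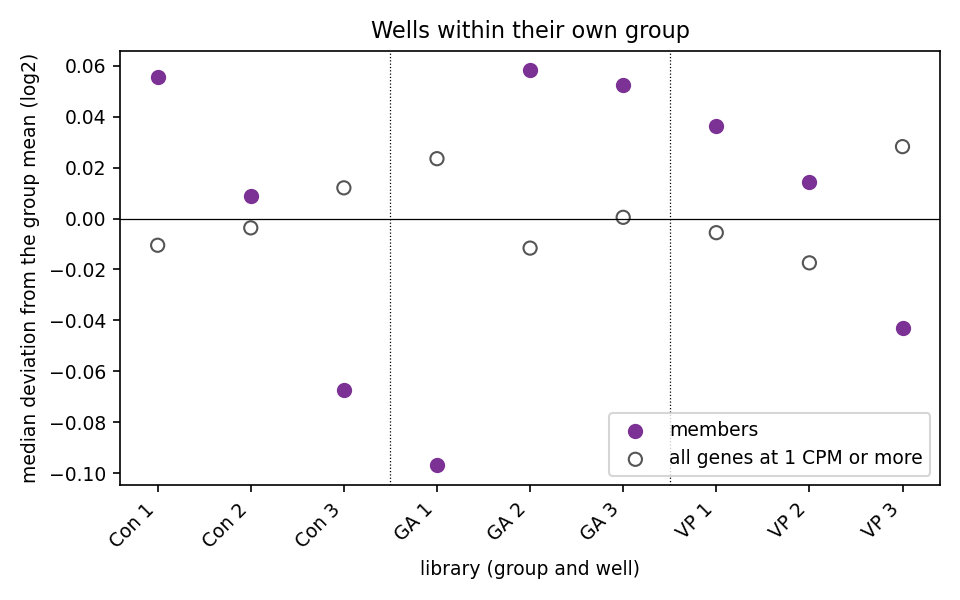
Median deviation of the 196 members (filled) and of all 11709 genes (open) from the mean of their own group, in log2 units, in each of the 9 wells. On library totals the members lie lowest in Con well 3, GA well 1 and VP well 3, at -0.07, -0.10 and -0.04. The medians of all genes are slightly above 0 there.

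For the 153 members with at least 10 CPM, the deviations from the group means over the 9 libraries had a median pairwise correlation of 0.35. It was 0.00 among all 7990 genes at that level and 0.06 among the 261 genes that met the reversed rule. Between the members and the latter genes it was -0.15. All pairs share the same 9 libraries and their scaling, so these correlations are descriptions. In the sequencing quality figures that accompany the study, the same wells had the lowest GC percentage of reads within their groups, and the part of read GC content in this pattern was not tested.

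The 354 genes of the reversed rule had, on library totals, the larger distance in VP. Their median L was 0.58 for GA and -0.84 for VP, and the GA side took a median of 42.7% of the distance between the treatments, beside 57.3% in the members. Their share was 2.44% ± 0.0152 in the Con libraries, 4.16% ± 0.111 in the GA libraries and 1.33% ± 0.0391 in the VP libraries (SD, n = 3). With cyclic loess their medians were 0.63 and -0.69 and the GA side took 48.7%, close to the 51.6% of the members. Cyclic loess brought the sets nearest to each other. With TMM the GA side took 46.1%, beside 53.6% in the members. With totals excluding the 10 most abundant genes it took 43.5%, beside 56.0%. The size of the contrast between these sets, both chosen on library totals, thus also depended on the scaling. It was not tested, since the values chose both sets.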

How the data were processed

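RNA-seq libraries of 3 Con, 3 GA and 3 VP wells were analysed, grouped by the names in their labels. The authors deposited raw counts per gene, neither normalized nor pooled. Per the submitters' processing notes, CASAVA 1.8 and HISAT2 were used, and the study's methods name Oar_rambouillet_v1.0 as the sheep build. The counting tool, annotation and treatment of strand and of reads shared by similar genes are not given in the sources used here.

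CPM was computed on column totals, and the rule was applied to mean CPM and library values. Fold changes came from edgeR 4.0.16 (R 4.3.3; TMM, glmQLFit, glmQLFTest, Benjamini-Hochberg over 11709 genes), with only the 6 libraries of each comparison. Both comparisons share the Con libraries. DESeq2 1.42.0 and limma-voom (limma 3.58.1) were alternatives, and the fits were first run on simulated data. A floor of 3 counts is 0.195 CPM, for counting error only.

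The members and the lists were chosen with earlier results of these data known. Named identifiers follow a rule, the first 2 by the smaller of both distances and the 2 with the highest mean CPM. Gene lists were not used, for lack of symbols, and the named genes follow the part of the rule for identifiers without symbols.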

Additional observations from a re-analysis of the deposited data

How the results depend on the processing

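The rule gave from 180 to 277 genes when only the scaling, the pseudocount or the minimum was changed. With size thresholds of 0.2 and 0.5 in place of 0.3 it gave 352 and 53 genes. The median L for VP of the 196 members was 0.43, and it was 0.50 with TMM, 0.52 with DESeq2 size factors, 0.49 with upper-quartile scaling and 0.56 with cyclic loess, each a move larger than the spread between wells (SD 0.042). The median L for VP of all genes moved from -0.09 to 0.05 with cyclic loess. The members' median L for GA stayed between -0.61 and -0.58 under these scalings, and the medians of both sides were nearest to equal with cyclic loess. By the count of members with the larger side, DESeq2 size factors came nearest to equal (104 and 92). The cause was not tested. With cyclic loess, 277 genes met the rule, of which 153 were members. Of the 196 members, 141 met the rule under each of the 5 other scalings, 114 with each library left out in turn and 97 under both. Cyclic loess, library totals without the 10 most abundant genes and the removal of the well of each group that stood apart were added after the values were seen, as was the count of members by the larger side. This removal left 227 genes, of which 160 were members.

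Leaving out each library singly, the genes that met the rule ranged from 183 to 243. The median L ranged from -0.66 to -0.52 in GA and from 0.41 to 0.45 in VP. Members called lower in GA ranged from 120 to 156, and those called higher in VP from 157 to 176. All genes called in either direction ranged from 3177 to 4832 in GA (4208 with all libraries) and from 5003 to 6436 in VP (6050).

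The labels do not say that same-numbered wells were paired, and the wells were treated as unpaired because not every correlation passed 0.1. Over all genes tested, their deviations correlated between -0.23 and 0.08 for Con and GA and between 0.07 and 0.32 for Con and VP. At 10 CPM or more they were between 0.25 and 0.62 for Con and VP. At that level they were between -0.51 and 0.12 for Con and GA, and between -0.38 and 0.19 for GA and VP. Whether same-numbered wells shared a day or a plate was not tested. With the replicate block, 130 members were called lower in GA and 182 higher in VP. All genes called in either direction were 3368 and 7243, so these are not shares in the same direction. For ENSOARG00020016179, the call in VP was lost under 10 of 13 alternatives, with adjusted p-values between 0.054 and 0.14 (edgeR, DESeq2 and limma-voom). Under the alternatives that kept the call, the adjusted p-values were between 0.024 and 0.045 (edgeR). No value of the 4 identifiers reversed.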
